A study of Mus musculus with 4 samples.

Results

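Secretoglobins, surfactant proteins and the airway mucin Muc5b are secreted products of the respiratory epithelium, and 8 of their genes were followed here: Scgb1a1, Scgb3a1, Scgb3a2, Muc5b, Sftpa1, Sftpb, Sftpc and Sftpd. They were taken by symbol from the 32285 genes of the deposited matrices, and all 8 symbols were found there. The sections came from a spatial transcriptome study of the developing mouse esophagus, in which RNA is captured on a slide of barcoded spots that each lie under a small patch of tissue. An embryo section at E13.5 and one at E16.5, both counted in embryonic days, and 2 sections of dissected esophagus at postnatal day 0 (P0) were measured, all from wild-type, untreated mice and cut at 8 µm. The labels do not say how many animals stand behind the sections.

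The respiratory epithelium buds from the foregut and branches into conducting airways, which lie proximally, and into distal tips that form the alveoli. Club cells and other secretory cells of the airways make secretoglobins, small secreted proteins, and mucous cells and glands make gel-forming mucins such as Muc5b. Alveolar type II cells make surfactant, in which the small hydrophobic proteins B and C spread the lipid film and the collectins A and D bind microbes. The transcription factor NKX2-1 is needed for lung and thyroid identity and acts on several secretoglobin and surfactant promoters.

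Among the secretoglobins, Scgb1a1 (ENSMUSG00000024653) encodes the classical club cell secretory protein and lies on chr19:9083642-9087956 of GRCm38.p6. Scgb3a1 (ENSMUSG00000064057) is on chr11:49663595-49665118 and Scgb3a2 (ENSMUSG00000038791) on chr18:43764301-43767399, and both encode related secreted proteins of the airway.

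Muc5b (ENSMUSG00000066108, chr7:141839059-141873089) encodes a gel-forming mucin needed for mucociliary clearance. The collectin genes Sftpa1 (ENSMUSG00000021789, chr14:41131788-41136373) and Sftpd (ENSMUSG00000021795, chr14:41172212-41185198) are neighbours, while Sftpc (ENSMUSG00000022097, chr14:70520941-70524081), the alveolar type II marker, lies elsewhere on the same chromosome. Sftpb (ENSMUSG00000056370, chr6:72304610-72314373) encodes the surfactant protein without which newborn mice cannot breathe.

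Promoters of only 3 of the 8 genes were in the RefSeq promoter table of GRCm38.p6, and the 200 bases before each of these transcription starts are shown. At E16.5 Scgb3a1 was highest in a strip of airway away from the distal lung, and Sftpa1 and Sftpb were both highest in the distal lung. Capitals mark CTCAAG, or its reverse complement, the core letters bound by NKX2-1. All 3 lie on the plus strand and are written 5′ to 3′, at chr11:49663395-49663594, chr14:41131588-41131787 and chr6:72304410-72304609.
Scgb3a1: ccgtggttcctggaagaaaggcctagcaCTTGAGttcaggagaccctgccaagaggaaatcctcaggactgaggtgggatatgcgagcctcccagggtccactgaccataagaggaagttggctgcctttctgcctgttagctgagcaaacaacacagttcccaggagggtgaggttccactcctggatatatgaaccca
Sftpa1: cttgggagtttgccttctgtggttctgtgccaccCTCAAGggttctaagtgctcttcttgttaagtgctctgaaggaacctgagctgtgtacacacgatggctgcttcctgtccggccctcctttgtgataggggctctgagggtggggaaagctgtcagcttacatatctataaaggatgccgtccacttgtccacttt
Sftpb: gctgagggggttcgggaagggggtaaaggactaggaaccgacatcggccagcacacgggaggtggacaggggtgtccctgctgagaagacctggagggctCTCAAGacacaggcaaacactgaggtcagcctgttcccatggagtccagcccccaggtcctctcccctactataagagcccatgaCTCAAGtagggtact

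The core letters were searched on both strands. They occur once before Scgb3a1, at position -172 on the minus strand, once before Sftpa1 at -166, and at -100 and -15 before Sftpb, counted from the start. Of all 32851 promoters in the table, 10.5% hold the letters in a window of the same length. A TATA box (TATAAA) stands at -30 before Sftpa1, and 9.96% of all promoters hold one. TGTTTAC, a core motif of the FOXA factors held by 2.51% of promoters, is not in these 3 windows. A match of letters is a description of the sequence and not a measured binding site.

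Captured molecules were counted by their molecular tags (UMIs), and spots with at least 500 were kept, which left 3220 spots at E13.5, 3588 at E16.5, and 363 and 264 in the P0 replicates. Median depth per spot ranged over the sections from 25465 to 29289 UMIs. Totals were 98643829 UMIs at E13.5, 105834164 at E16.5, and 10260709 and 7356008 at P0. Levels are UMIs per 1000000 UMIs (CPM) of a set of spots, and 95% intervals on levels, ratios and shares cover counting error only. Each embryo stage has 1 section, so its values carry no test, and differences between stages cannot be told apart from differences in which organs each section holds. Spot barcodes mark places on the slide, and 21 of them occur in all 4 sections.

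Across the sections, all 8 genes were far higher at E16.5 than in the other sections, with the exception of Sftpd at P0. Scgb3a2 had 53 UMIs (0.537 CPM, interval 0.402 to 0.703) at E13.5, 49725 (469.8 CPM, 465.7 to 474.0) at E16.5, and 15 and 17 (1.46 and 2.31 CPM) in the P0 replicates. Sftpc had 247 UMIs (2.50 CPM, 2.20 to 2.84) at E13.5, 35847 (338.7 CPM, 335.2 to 342.2) at E16.5, and 5 and 4 (0.487 and 0.544 CPM) at P0. These were the only members with more than 20 UMIs at E13.5. Scgb3a1 had 7 UMIs (0.0710 CPM) at E13.5, 8790 (83.1 CPM) at E16.5, and 2 and 0 at P0. Scgb1a1 had 1 UMI (0.0101 CPM) at E13.5, 1404 (13.3 CPM) at E16.5, and 7 and 2 at P0. Muc5b had 2 UMIs (0.0203 CPM) at E13.5, 1932 (18.3 CPM) at E16.5, and 0 in both P0 sections. Secretoglobin and mucin transcripts were thus nearly all in 1 of the 4 sections. Sftpb had 16 UMIs (0.162 CPM) at E13.5, 2111 (19.9 CPM) at E16.5 and 0 in both P0 sections. Sftpa1 had 11 UMIs (0.112 CPM) at E13.5, 977 (9.23 CPM) at E16.5 and 0 in both P0 sections. Sftpd had 0 UMIs at E13.5, where 3 counts would be 0.0304 CPM, 352 (3.33 CPM) at E16.5, and 10 and 22 (0.975 and 2.99 CPM) at P0. Of the 22 Sftpd UMIs of P0 replicate 2, 13 lay in 1 spot.

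**Figure D1:**
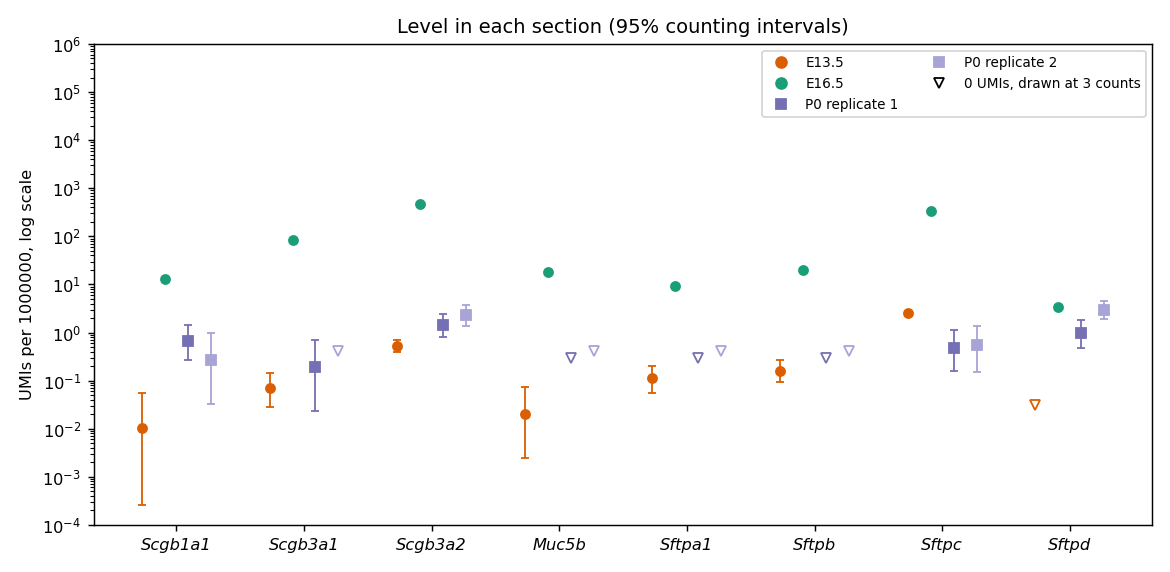
Level of the 8 genes in each section, in UMIs per 1000000 on a log scale, with 95% counting intervals; open triangles mark 0 UMIs and are drawn at the level of 3 counts. The E16.5 points lie highest for every gene, from 3.33 CPM for Sftpd to 469.8 CPM for Scgb3a2; of the 22 Sftpd UMIs of P0 replicate 2, 13 lay in 1 spot.

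As ratios of E16.5 to E13.5, Scgb1a1 was 1309-fold higher (log2 10.35, interval 7.87 to 15.66), Scgb3a1 1170-fold (10.19, 9.15 to 11.51) and Muc5b 900.4-fold (9.81, 7.96 to 12.86). Scgb3a2 was 874.5-fold higher at E16.5 (log2 9.77, 9.38 to 10.19). Among the surfactant genes, Sftpc was 135.3-fold higher (7.08, 6.90 to 7.27), Sftpb 123.0-fold (6.94, 6.24 to 7.75) and Sftpa1 82.8-fold (6.37, 5.53 to 7.38). For Sftpd, with 0 UMIs at E13.5, the interval on the log2 ratio began at 6.47. All 8 were at least 2-fold higher, where 10.5% of the 18900 genes with at least 20 UMIs in both sections together were and 4.72% were at least 2-fold lower. For 6 of the 8 that minimum was met through E16.5 alone, so the count says nothing of the set. In spots, fewer cells of a type and less RNA per cell cannot be told apart.

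The genes around them differed less evenly between the embryo sections, where the median gene had a log2 ratio of -0.12. Of 13 further airway secretory genes, 8 were at least 2-fold higher at E16.5 and 0 lower, with a median log2 ratio of 2.38. Gabrp went the other way, at 0.425 CPM at E16.5 and 1.02 CPM at E13.5. It was not called lower because 0.5 CPM is added to both levels before a call. Reg3g, an antimicrobial lectin, stood at 54.5 CPM at E16.5 and 0.0405 CPM at E13.5, and Cyp2f2, a cytochrome P450 of club cells, at 47.0 and 0.517 CPM. Of 11 genes of surfactant making and its cells, 6 were at least 2-fold higher and 0 lower. These included Slc34a2, the phosphate transporter of alveolar type II cells, at 11.3 CPM at E16.5 and 0.0304 CPM at E13.5, and Lamp3, of the lamellar body, at 3.05 and 0.0304 CPM. Abca3, the lipid pump of that organelle, had 48.4 CPM at E16.5 and 40.4 CPM at E13.5. Of 14 lung regulators, 2 were at least 2-fold higher and 1 lower, and Nkx2-1 itself differed by a log2 ratio of 0.64 (6.13 CPM at E16.5 and 3.94 CPM at E13.5).

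At E16.5 the share of spots with at least 1 UMI was widest for Sftpc, 61.8% of 3588 spots (interval 60.2 to 63.4), and for Scgb3a2, 50.4% (48.7 to 52.0). Shares of the other members were 15.8% for Scgb3a1, 14.2% for Sftpb, 9.84% for Sftpa1, 8.67% for Scgb1a1, 7.02% for Muc5b and 5.27% for Sftpd. Thinned to 10000 UMIs in each of the 3138 spots deep enough, the shares were 37.4% for Sftpc and 26.9% for Scgb3a2, and between 2.87% and 8.73% for the other 6. Such shares hold a background. Neuron-rich spots, chosen by neuronal genes, had a Sftpc UMI in 80.6% of 72 spots (median depth 30099 UMIs) and a Scgb3a2 UMI in 40.3%. Liver-rich spots had them in 61.1% and 59.7% (median depth 23258), and cartilage-rich spots in 62.5% and 55.6% (median depth 6907). A spot with a single UMI of either gene therefore does not show that its tissue makes it, and levels are used below.

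The UMIs themselves were concentrated in few spots. Of the Scgb3a2 UMIs, 50% lay in 24 spots, of Scgb1a1 and Scgb3a1 in 17 spots each, and of Muc5b in 18 spots. For Sftpa1, Sftpb, Sftpc and Sftpd the same share took 44, 46, 48 and 48 spots. Distal-lung-rich spots, defined below, made up 40 of those 44 for Sftpa1, 44 of 46 for Sftpb and 46 of 48 for Sftpc, but 22 of 48 for Sftpd. They made up 1 of 17 for Scgb1a1 and 0 for Scgb3a1, Scgb3a2 and Muc5b.

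Proximal and distal places were set by other genes, so that no member took part in choosing them. Distal-lung-rich spots were the highest 2% of spots, 72 in number, by 11 markers of alveolar cells and distal lung epithelium such as Napsa, Slc34a2, Ager and Nkx2-1. They formed 2 neighbouring groups of 54 and 18 spots against the last column of the capture grid, so that the lung is cut by the slide's edge. Of the 72, 58 were also among the highest 2% by 7 lung mesenchyme genes, and they held 240 Nkx2-1 UMIs and 120 of Tbx4, a lung mesenchyme factor. Airways were found by 12 genes of motile cilia. The ciliated-rich spots fell into 7 groups. A group of 4 spots lay 1 grid step from the distal lung and is called the airway beside the lung. It had 18 Foxj1 UMIs (290 CPM), 5 of Nkx2-1 and 61980 UMIs in all. A group of 8 spots, 4 to 11 grid steps from the distal lung, is called the airway strip, with 63 Foxj1 UMIs (243 CPM) and 15 of Nkx2-1. It was singled out after its values were seen, as the largest ciliated-rich group with Nkx2-1 UMIs beyond 3 steps of the distal lung. The labels do not name these places, and the tissue images were not used.

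**Figure D2:**
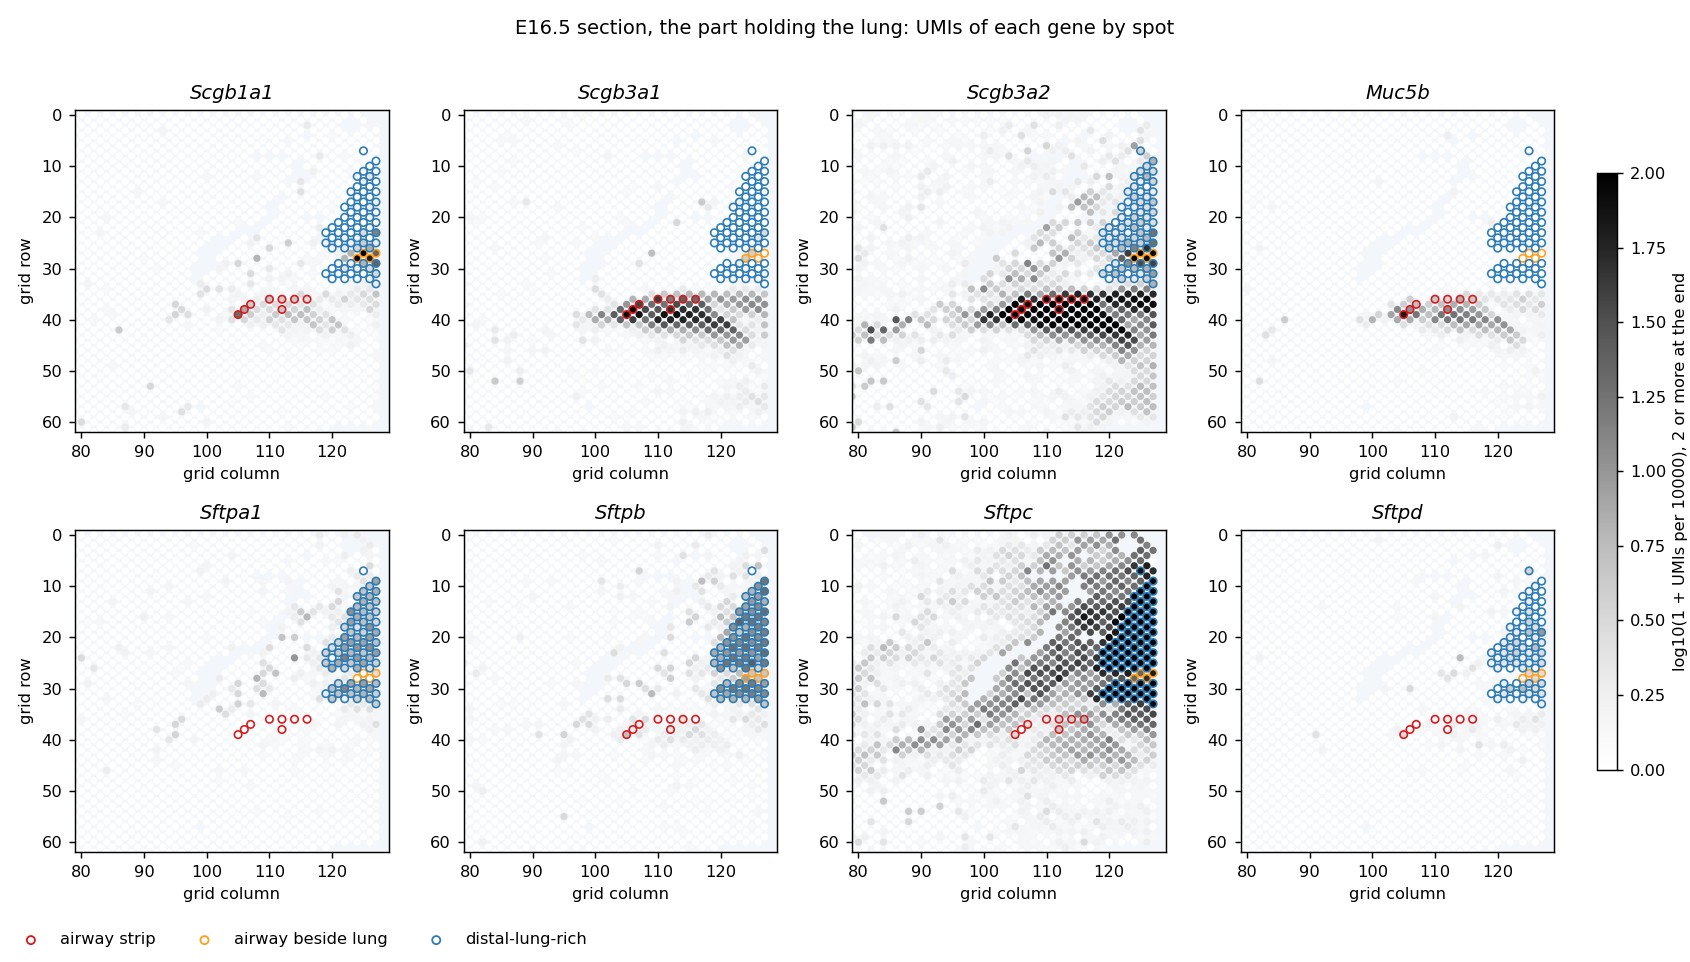
The part of the E16.5 section that holds the lung, with 1 dot per spot by grid column and row and darker dots for more UMIs of the gene named above each panel, as log10(1 + UMIs per 10000) on a scale that ends at 2. Rings mark the airway strip (8 spots), the airway beside the lung (4 spots) and the distal-lung-rich spots (72 spots); Scgb3a1 and Muc5b are dark around the strip, Scgb1a1 in the airway beside the lung, Scgb3a2 in both and Sftpc in the distal lung.

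Scgb1a1 was highest in the airway beside the lung. Its 4 spots held 168, 128, 91 and 38 Scgb1a1 UMIs, 425 in all, or 6857 CPM (6221 to 7541). The 8 spots of the airway strip held 139, with a median of 12 and 58 in the highest spot, or 535.9 CPM (450.5 to 632.8). The 72 distal-lung-rich spots held 97 (78.3 CPM, 63.5 to 95.5) and a median of 0. The 4 airway spots each had more than any distal-lung-rich spot, where the highest had 23. Neuron-rich spots had 1 UMI (0.422 CPM). Relative to the distal lung, Scgb1a1 was 87.6-fold higher in the airway beside the lung (log2 6.45, 6.13 to 6.79) and 6.85-fold higher in the strip (2.78, 2.39 to 3.16). Beside the lung the log2 ratio was smaller with other choices of spots, 1.13 with the highest 5% of spots in both lists and 2.004 with all ciliated-rich spots as the airway. Between the airways it was lower in the strip, by a log2 ratio of -3.68 (-3.96 to -3.40).

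Scgb3a1 had the opposite order between the airways. The strip held 1857 UMIs (7160 CPM, 6838 to 7493), of which 1002 lay in 1 spot and between 64 and 236 in each of the other 7. The airway beside the lung held 10, spread as 5, 4, 1 and 0 over its spots (161.3 CPM, 77.4 to 296.7), and the distal lung 10 in 72 spots (8.07 CPM). Even the lowest strip spot thus had more Scgb3a1 UMIs than the 4 spots beside the lung together. Without the spot of 1002 UMIs the strip stood at 3725 CPM, so that spot moves the level by more than 1.5-fold. Between the airways the strip was 44.4-fold higher (log2 5.47, 4.59 to 6.53). The level in the distal lung was close to that of spots over 12 steps away, 6.48 CPM (5.97 to 7.02), and above that of neuron-rich spots, 2.95 CPM (1.19 to 6.08), with overlapping intervals.

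Scgb3a2 was high in both airways. It reached 35595 CPM (34872 to 36328) in the strip, from 9232 UMIs with 495 in the lowest spot and 3269 in the highest. The airway beside the lung stood at 36673 CPM (35181 to 38212), its spots holding 802, 722, 522 and 227 UMIs. The log2 ratio of strip to airway beside the lung was -0.04, with a counting interval of -0.11 to 0.02 that holds 0. That interval does not cover the spread between spots. The same spot that led Scgb3a1 held the 3269 UMIs. Without it the strip stood at 25979 CPM (25324 to 26647), below the interval of the airway beside the lung. In the distal lung Scgb3a2 stood at 372.8 CPM (339.6 to 408.4) and had a UMI in 68 of 72 spots, against 15.2 CPM in neuron-rich spots. It was 95.5-fold higher in the strip than in the distal lung (log2 6.58) and 98.4-fold higher in the airway beside the lung (log2 6.62).

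Muc5b was found in the strip and not beside the lung. The strip held 336 UMIs (1295 CPM, 1161 to 1442), with 200 in the spot that led the other strip genes and between 8 and 53 in the other 7. The airway beside the lung and the distal lung both held 0 UMIs, in 4 and 72 spots, where 3 counts would be 48.4 and 2.42 CPM. The interval on the log2 ratio of the strip therefore began at 4.44 over the airway beside the lung and at 8.76 over the distal lung. Without its highest spot the strip stood at 592.5 CPM.

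The 3 genes that were high in the strip spread beyond its 8 ciliated-rich spots. A group of 27 spots rich in 13 airway secretory genes that hold no member, such as Reg3g, Cbr2 and Krt15, took in all 8. It held 52.0% of the Scgb3a2 UMIs of the section, 57.5% of those of Scgb3a1, 52.9% of those of Muc5b and 23.4% of those of Scgb1a1. In its 19 spots outside the strip the levels were 22869 CPM for Scgb3a2, 4397 CPM for Scgb3a1, 944.3 CPM for Muc5b and 260.2 CPM for Scgb1a1. Foxj1 stood at 90.8 CPM there and at 243 CPM in the strip. The levels of these genes were lower in those 19 spots than in the full strip, and for Scgb3a1 and Muc5b higher than in the strip without its highest spot.

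Sftpc, by contrast with the secretoglobins, was highest in the distal lung. All 72 distal-lung-rich spots had Sftpc UMIs, 28 in the lowest spot, a median of 304.5 and 703 in the highest, 21480 in all (17332 CPM, 17101 to 17565). The airway beside the lung held 247 UMIs, as 109, 74, 35 and 29 per spot (3985 CPM, 3504 to 4514). The strip held 71 (273.7 CPM, 213.8 to 345.3), with 19 in its highest spot. Every spot of the distal lung thus had more Sftpc UMIs than any spot of the strip. Relative to the distal lung, Sftpc was lower by a log2 ratio of -2.12 (-2.31 to -1.94) in the airway beside the lung and of -5.98 (-6.34 to -5.65) in the strip. Neuron-rich spots stood at 81.4 CPM (70.3 to 93.7), so the strip lay above a tissue that should lack Sftpc with intervals that do not overlap. Cartilage-rich spots, the shallowest, stood at 414.7 CPM (362.8 to 472.1), so the strip did not lie above every such tissue.

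Sftpb stood at 1025 CPM in the distal lung (1270 UMIs, median 16 and at most 38 a spot), at 467.9 CPM (313.4 to 672.0) in the airway beside the lung (29 UMIs in 4 of 4 spots) and at 123.4 CPM (84.4 to 174.2) in the strip. Its log2 ratio to the distal lung was -1.13 (-1.72 to -0.60) beside the lung and -3.05 (-3.61 to -2.55) in the strip. Sftpb was thus lower in both airways than in the distal lung, and it stood at 3.37 CPM in neuron-rich spots. Sftpa1 stood at 471.2 CPM in the distal lung (584 UMIs in 71 of 72 spots). The airway beside the lung had 3 Sftpa1 UMIs, all in the spot with the most Sftpc, and the strip 2, with log2 ratios to the distal lung of -3.28 (-5.57 to -1.73) and -5.93 (-8.98 to -4.07).

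Sftpd, a collectin like Sftpa1, had 10 UMIs in the airway beside the lung, as 3, 3, 3 and 1 per spot (161.3 CPM, 77.4 to 296.7), 17 in the strip (65.5 CPM, 38.2 to 104.9) and 131 in the distal lung (105.7 CPM, 88.4 to 125.4). The log2 ratio to the distal lung was 0.61 (-0.48 to 1.53) beside the lung and -0.69 (-1.51 to 0.04) in the strip. Both intervals hold 0, so a difference between airway and distal lung was not detectable at this depth. The ratio was -0.96 with the highest 5% of spots in both lists and -2.62 with all ciliated-rich spots as the airway, so its direction depends on these settings. Between the airways Sftpd was lower in the strip by a log2 ratio of -1.30 (-2.51 to -0.01). The 50 Sftpd UMIs of the 27 secretory-gene-rich spots made up 14.2% of the section's, where the same spots held 1.14% of the Sftpc UMIs, 1.02% of those of Sftpa1 and 5.12% of those of Sftpb.

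**Figure D3:**
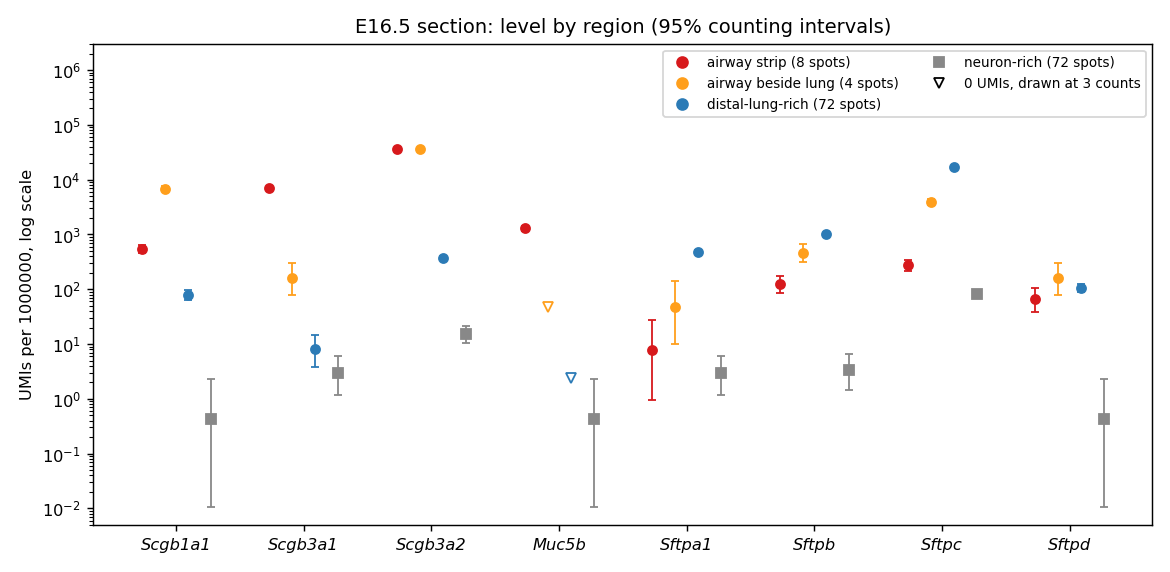
Level of each gene in the airway strip, the airway beside the lung, the distal-lung-rich spots and the neuron-rich spots of the E16.5 section, in UMIs per 1000000 on a log scale with 95% counting intervals; open triangles mark 0 UMIs and are drawn at the level of 3 counts. Scgb3a1 and Muc5b separate the airway groups, Sftpa1, Sftpb and Sftpc are highest in the distal lung, and the Sftpd intervals of the 3 lung places overlap. For Scgb3a2 the intervals of the airway groups overlap with all strip spots in, but without the strip's highest spot its level there is 25979 CPM, below the airway beside the lung.

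Counted against all genes, 7 members could be compared between the airway beside the lung and the distal lung. There 3 were at least 2-fold higher, Scgb1a1, Scgb3a1 and Scgb3a2, where 10.4% of 8589 genes were, and 3 at least 2-fold lower, Sftpa1, Sftpb and Sftpc, where 26% were. Between the strip and the distal lung 4 of 8 were higher, Scgb1a1, Scgb3a1, Scgb3a2 and Muc5b, where 6.68% of 9162 genes were, and the same 3 surfactant genes lower, where 19.8% were. Between the strip and the airway beside the lung 2 of 7 were higher, Scgb3a1 and Muc5b, where 12% of 2485 genes were, and 4 lower, Scgb1a1, Sftpb, Sftpc and Sftpd, where 9.05% were. Some members reached the minimum of 20 UMIs only through the place where they were high, Muc5b among them. With the highest 5% of spots in both lists, the log2 ratio of airway to distal lung was 4.15 for Scgb3a2.

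Against the rest of the section, the distal lung was higher in Sftpb by a log2 ratio of 6.99 (6.87 to 7.12), in Sftpc by 6.98 (6.95 to 7.01), in Sftpa1 by 6.97 (6.78 to 7.16) and in Sftpd by 5.64 (5.32 to 5.96). Scgb1a1 was also higher, by 2.65 (2.33 to 2.95). Of its 97 UMIs in the distal lung, 62 lay in the 23 spots of the last 2 grid columns (199.0 CPM). The airway beside the lung reaches these columns too. Scgb3a1 was lower by a log2 ratio of -3.38 (-4.44 to -2.50). Muc5b, at 0 UMIs, was also lower, with an upper limit of -2.63 on its log2 ratio. For Scgb3a2 the ratio was -0.34 (-0.47 to -0.21), and it turned to 1.999 when the distal lung was widened to the highest 5% of spots. That widening turned Scgb3a1 to 0.45. With spots chosen by lung mesenchyme genes, where 10.1% of genes were at least 2-fold higher, Scgb3a2 stood at 1.52 and Scgb3a1 at 1.09, and Muc5b at 0.01 (-0.67 to 0.61). In those spots the highest spot held 199 of the 209 Scgb3a1 UMIs, 1188 of 1582 of Scgb3a2 and all 22 of Muc5b. A spot of the airway strip has these same counts. In the distal-lung-rich spots, 5 of the 8 members were at least 2-fold higher, where 10.2% of 17851 genes were, and 2 lower, where 21.1% were.

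The pair of groups within the distal lung gave like orders. Sftpc stood at 19119 CPM in the group of 54 spots and 14097 CPM in that of 18, Sftpb at 1136 and 823.1 CPM, Sftpa1 at 509.8 and 401.4 CPM and Sftpd at 105.2 and 106.6 CPM. Scgb1a1 stood at 56.4 and 117.9 CPM and Scgb3a2 at 319.4 and 469.4 CPM. The smaller group thus had less of 3 surfactant transcripts and more of those secretoglobins, and Muc5b was 0 in both.

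Level by distance gave the same order without the choice of airway spots. From the distal lung outwards, Sftpc stood at 17332 CPM at 0 steps, 3579 at 1 step, 1605 at 2 and 1464 at 3, 809.8 at 4 to 6, 434.4 at 7 to 9, 168.2 at 10 to 14, 52.5 at 15 to 24 and 31.1 CPM beyond. Sftpb, Sftpa1 and Sftpd also stood highest at 0 steps, at 1025, 471.2 and 105.7 CPM, and lowest beyond 24 steps, at 2.74, 1.11 and 0.301 CPM. The secretoglobins and Muc5b peaked away from it. Scgb1a1 peaked at 1 step, 452.1 CPM, against 78.3 CPM within the distal lung and 42.9 CPM at 2 steps. Scgb3a1 and Muc5b were highest at 7 to 9 steps, 1235 and 263.5 CPM, and Scgb3a2 had peaks at 1 step (2530 CPM) and at 7 to 9 steps (6087 CPM). The ring at 1 step takes in the airway beside the lung. The strip spans several rings, and its spot with the most Scgb3a2 lay at 11 steps.

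**Figure D4:**
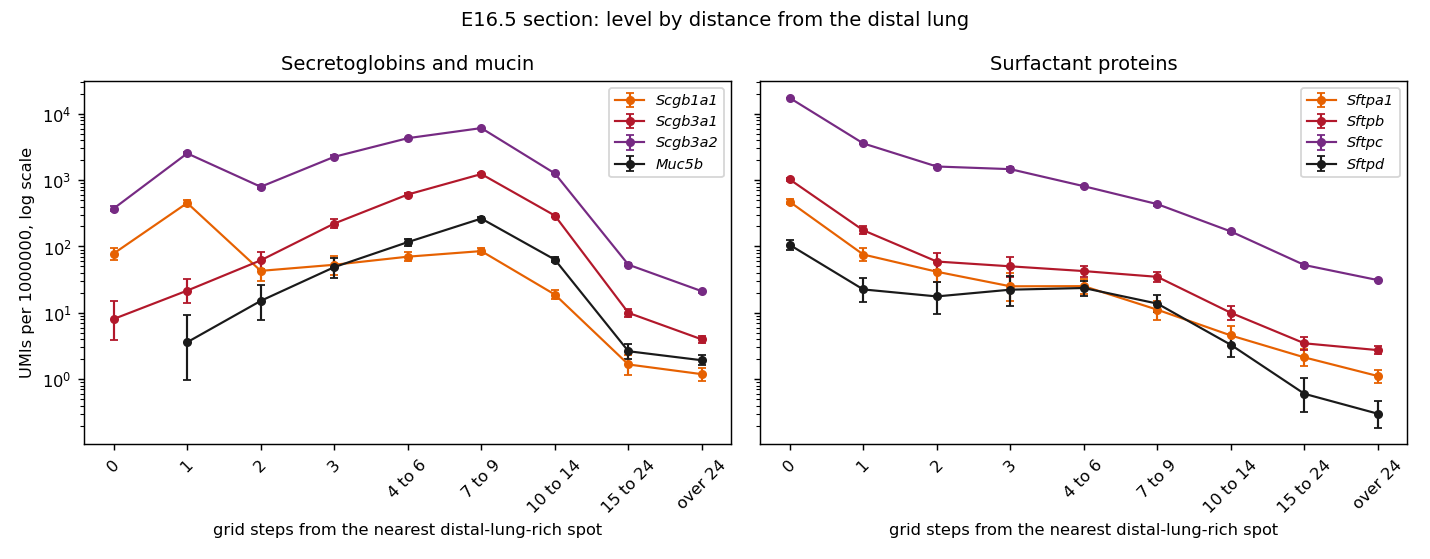
Level in the E16.5 section by grid steps from the nearest distal-lung-rich spot, in UMIs per 1000000 on a log scale with 95% counting intervals; Muc5b has no point at 0 steps because it had 0 UMIs there. The surfactant genes are highest at 0 steps, Scgb1a1 at 1 step, and Scgb3a1, Scgb3a2 and Muc5b at 7 to 9 steps.

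Ratios between members show how far places differ in their mixture. For each Scgb1a1 UMI there were 66.4 Scgb3a2 UMIs (56.2 to 79.1) in the strip, 5.35 (4.82 to 5.95) in the airway beside the lung and 4.76 (3.82 to 5.99) in the distal lung. For each Scgb3a1 UMI there were 4.97 of Scgb3a2 (4.73 to 5.23) in the strip, 227 (123 to 475) beside the lung, and 46.2 (24.9 to 97.0) in the distal lung. By the ratio to Scgb1a1, the distal-lung-rich spots were thus like the airway beside them, with overlapping intervals, and unlike the strip. Of the distal lung's UMIs, 62 of 97 of Scgb1a1 and 223 of 462 of Scgb3a2 lay in the 23 spots of the last 2 grid columns. By the ratio of Scgb3a2 to Scgb1a1, the other distal-lung-rich spots were not looked at apart. By the ratio to Scgb3a1 the distal-lung-rich spots lay between the airways and apart from both, on 10 Scgb3a1 UMIs. Sftpc outnumbered Sftpb 16.9-fold (15.98 to 17.91) in the distal lung, 8.52-fold (5.78 to 12.98) in the airway beside it and 2.22-fold (1.44 to 3.48) in the strip. Spots over 12 steps from the lung had 13.1 Sftpc UMIs per Sftpb UMI (11.6 to 14.9), nearer to the distal lung than to the strip.

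Genes most like each member were looked for over the 3588 spots, among 14349 genes that are no members, by the correlation of log values, and all points share 1 library. Scgb3a1, Scgb3a2 and Muc5b were each nearest to Reg3g (Pearson r 0.84, 0.75 and 0.87), followed by Agr2, a disulfide isomerase of mucous cells (0.71, 0.60 and 0.78). Scgb1a1 was nearest to Hp, haptoglobin (0.53), and to Reg3g (0.52). Sftpa1 and Sftpb were nearest to Slc34a2 (0.79) and Sfta2, a surfactant-associated secreted protein (0.82). Sftpc was nearest to Ager, a receptor of alveolar type I cells (0.74), and Sftpd to Sfta2 (0.58). Among members themselves r was highest for Scgb3a1 with Muc5b (0.86) and with Scgb3a2 (0.81), and for Sftpa1 with Sftpb (0.78). It was 0.01 for Sftpa1 with Muc5b and 0.03 for Sftpa1 with Scgb3a1.

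Levels of these companions differed between the same places. Reg3g stood at 3516 CPM in the strip, 161.3 CPM in the airway beside the lung and 1.61 CPM in the distal lung, and Agr2 at 628.5, 64.5 and 0 CPM. Hp stood at 478.1 CPM in the strip, 2033 CPM beside the lung and 59.7 CPM in the distal lung. Hp thus shared the order of Scgb1a1, and Reg3g and Agr2 that of Scgb3a1. Slc34a2 had 3.86 CPM in the strip, 64.5 CPM beside the lung and 647.1 CPM in the distal lung.

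Of the 13 airway secretory genes, 7 could be compared between the airway beside the lung and the distal lung, and all 7 were at least 2-fold higher. Their median log2 ratio was 3.80, where that of all genes was -0.22. Among them were Cbr2, a carbonyl reductase of club cells, at 2372 CPM beside the lung and 83.9 CPM in the distal lung, Hp, Cyp2f2 at 645.4 and 36.3 CPM, and Cldn10, a claudin, at 484.0 and 64.6 CPM. In the strip 8 of 9 were at least 2-fold higher than in the distal lung and 0 lower. Between the airways 3 of 8 were higher in the strip, Reg3g, the basal and secretory keratin Krt15 and Gsto1, and 2 lower, Hp and Cldn10. Cyp2f2 stood at 651.6 CPM in the strip and 645.4 CPM beside the lung, a log2 ratio of 0.01 (-0.49 to 0.55).

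Few other mucins and mucous cell genes reached the minimum in these comparisons. Of 10 mucins besides Muc5b, only Muc1, a membrane mucin of many epithelia, reached the minimum in the comparisons of airway with distal lung, with 111.8 CPM in the strip, 242.0 CPM beside the lung and 322.8 CPM in the distal lung. Muc5ac, the gel-forming mucin of surface goblet cells, had 5 UMIs in the strip, 2 beside the lung and 1 in the distal lung. Of 8 mucous cell genes, 2 could be compared between strip and distal lung and 1 was higher, Agr2, with 163 UMIs in the strip and 0 in the distal lung. Tff2, a trefoil peptide, had 16 UMIs in the strip and 0 in the airway beside the lung and in the distal lung.

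Of 11 genes of surfactant making and its cells, 5 had chosen the spots, and of the other 6, 4 were at least 2-fold higher in the distal lung than in the rest and 0 lower. These included Ctsh, a protease that processes surfactant proteins, at 1095 CPM in the distal lung and 48.1 CPM in the rest, Gprc5a at 216.2 and 3.61 CPM and Lyz2, lysozyme, at 209.8 and 52.3 CPM. Cd36, a fatty acid transporter, stood at 156.5 and 222.2 CPM. In the strip 5 of the 6 were lower than in the distal lung, and in the airway beside the lung 2 of 6. Of the lung regulators, 2 of 10 were higher in the strip than in the distal lung, Foxa1 and the proximal airway factor Sox2, which stood at 50.1 and 5.65 CPM, and 5 were lower.

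Members were also found far from the lung. The largest ciliated-rich group, 46 spots lying 51 to 66 steps away, had 556 Foxj1 UMIs, 633 of the squamous keratin Krt13 and 0 of Nkx2-1. It held 56 Muc5b UMIs in 18 spots (55.5 CPM, 41.9 to 72.1), with 17 in the highest spot, and 2 Scgb3a1 UMIs. The ratio of Scgb3a1 to Muc5b UMIs was 0.0357 (0.00422 to 0.135) there and 5.53 (4.92 to 6.23) in the strip. Scgb1a1 had 1 UMI in that group, and Scgb3a2, at 27.8 CPM (18.4 to 40.1), was within the counting interval's reach of spots over 12 steps from the lung as a whole, 34.7 CPM. Sftpc had 313 UMIs (310.2 CPM, 276.8 to 346.6) in 42 of its spots, beside 2 of Sftpb, 0 of Sftpa1 and 4 of Sftpd. That is 156.5 Sftpc UMIs per Sftpb UMI, with an interval of 43.0 to 1298 that lies above the ratio in the distal lung. Cartilage-rich spots had a higher Sftpc level and neuron-rich spots a lower one.

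A different mixture was seen in 48 spots rich in thyroid genes, 37 to 48 steps from the lung, with 7470 UMIs of thyroglobulin (Tg) and 87 of Nkx2-1. They held 62 Sftpb UMIs in 18 spots (51.6 CPM, 39.5 to 66.1), with 21 in the highest, but 13 of Sftpc, 3 of Sftpa1 and 0 of Sftpd. Sftpb thus outnumbered Sftpc there, the ratio of Sftpc to Sftpb being 0.210 (0.106 to 0.385). Napsa, a protease of surfactant making, had 115 UMIs (95.6 CPM) in the same spots and 224 (180.7 CPM) in the distal lung. Scgb3a2 stood at 18.3 CPM and Sftpc at 10.8 CPM, below their levels in neuron-rich spots for Sftpc and near them for Scgb3a2.

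A few spots set the levels of liver-rich spots. Over all 72 of them Scgb3a2 stood at 742.4 CPM, Scgb3a1 at 146.2 CPM and Muc5b at 26.3 CPM, but in the 66 spots over 12 steps from the lung at 75.9, 8.50 and 1.70 CPM. Spots rich in stomach genes stood higher, at 6772, 1618 and 327.4 CPM. Their highest counts of these genes, 3269, 1002 and 200 UMIs, were those of the strip's highest spot. The ratio of Scgb3a2 to Scgb3a1 UMIs in all liver-rich spots, 5.08 (4.47 to 5.79), was that of the strip within counting error. It was also near that of neuron-rich spots, 5.14 (2.26 to 13.7), and of all spots over 12 steps from the lung, 5.35 (4.90 to 5.85). The ratio therefore does not set liver-rich spots apart.

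At E13.5 the marker list for distal lung did not find lung. Of its 64 highest spots, 53 formed a group with 2265 Hopx UMIs, 824 of Sox2, 0 of Nkx2-1 and 0 of Sftpc. Hopx is an alveolar type I gene that is also active in other organs, among them brain. A group of 5 spots held 28 Nkx2-1 UMIs and 49 of Sftpc. Lung at this stage is therefore taken from the largest group of spots rich in lung mesenchyme genes, 47 spots with 144 Tbx4, 141 Wnt2, 66 Nkx2-1 and 176 Epcam UMIs, a group chosen after its values were seen. Against the rest of the section, the 64 spots highest by the mesenchyme list were higher in Sftpc by a log2 ratio of 4.38 (3.96 to 4.78), where 4.33% of 17219 genes were at least 2-fold higher. By the distal lung list the ratio was 3.95 (3.51 to 4.37), where 5.84% were. Sftpc and Scgb3a2 alone had the 20 UMIs needed, and Scgb3a2 had a log2 ratio of 0.98 (-2.10 to 2.91) by the mesenchyme list and 0 UMIs in the spots of the distal lung list.

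**Figure D5:**
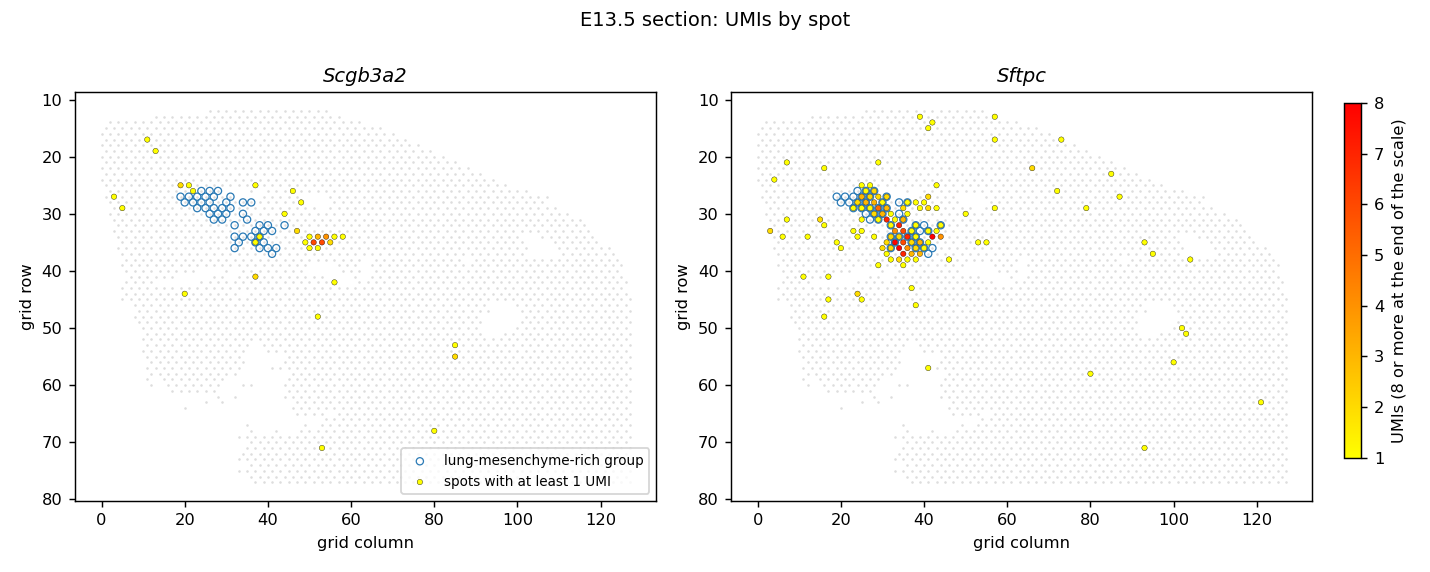
Spots of the E13.5 section with at least 1 UMI of Scgb3a2 (left) or Sftpc (right), coloured by UMIs on a scale that ends at 8, over all spots in grey by grid column and row; rings mark the 47 spots of the lung-mesenchyme-rich group. Sftpc spots lie in and beside the rings, and the Scgb3a2 spots with 3 or more UMIs lie together 5 to 6 steps from them.

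Sftpc at E13.5 lay in and around that group. Its 47 spots held 72 UMIs in 33 spots (52.6 CPM, 41.1 to 66.2). The 60 spots 1 step away stood at 54.5 CPM, followed by 12.3 CPM at 2 steps, 5.83 at 3, 1.99 at 4 to 6 and 0.240 CPM beyond 24 steps. The highest spot, with 23 UMIs, lay 1 step outside. Liver-rich spots stood at 1.12 CPM and neuron-rich spots at 0.758 CPM, so that Sftpc in the lung group was far above these tissues. Of the 11 Sftpa1 UMIs, 4 were in the group and 3 in a spot 1 step outside. Of the 16 Sftpb UMIs, 3 were in the group and 3 in that same spot outside it.

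Scgb3a2 at E13.5 lay elsewhere. Its highest 4 spots, with 6, 6, 4 and 3 UMIs, touched one another 5 to 6 steps from the lung group. Together with their neighbours they made 14 spots with 26 of the 53 UMIs of the section, 49.1%, or 46.6 CPM. The lung group held 2 Scgb3a2 UMIs (1.46 CPM, 0.177 to 5.28). The 14 spots, chosen by Scgb3a2 itself, held 30 Sox2 UMIs (53.8 CPM), 12 of Nkx2-1 (21.5 CPM), 1 of Foxj1 and 2 of Sftpc. They also held 15 UMIs of the lung mesenchyme factor Tbx4 (26.9 CPM). In the lung group Sox2 stood at 6.57 CPM and Nkx2-1 at 48.2 CPM. Scgb1a1, Scgb3a1 and Muc5b, with 1, 7 and 2 UMIs at E13.5, never had more than 1 UMI in a spot and had 0 in the lung group.

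In the P0 esophagus the members were at or near the limit of detection. Sftpa1, Sftpb and Muc5b had 0 UMIs in both sections, where 3 counts would be 0.292 and 0.408 CPM. Scgb3a2 averaged 1.89 ± 0.600 CPM and had a UMI in 4.96% ± 1.56 of spots (SD, n = 2), Sftpd 1.98 ± 1.43 CPM, Sftpc 0.516 ± 0.0399 CPM, Scgb1a1 0.477 ± 0.290 CPM and Scgb3a1 0.0975 ± 0.138 CPM (SD, n = 2 each). Of the 22 Sftpd UMIs of replicate 2, 13 lay in 1 spot, which was neither epithelium-rich nor muscle-rich. Both sections had 0 Nkx2-1 UMIs and 0 of Lamp3, while the esophageal keratin Krt13 stood at 10591 and 10130 CPM. The 12 cilia genes together had 154 and 247 UMIs, with 18 and 22 of Foxj1.

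Epithelium-rich spots of the P0 sections, the highest 25% by 10 epithelial genes, had 8 and 10 Scgb3a2 UMIs (2.16 and 3.47 CPM). Muscle-rich spots had 0 and 1 (0 and 0.648 CPM). Counting intervals of the regions overlapped, at 0.931 to 4.25 and 0 to 1.86 CPM in replicate 1, and 1.67 to 6.39 and 0.0164 to 3.61 CPM in replicate 2. Median depth was 39325 and 38936.5 UMIs in the epithelium-rich spots and 19800 and 21820 in the muscle-rich ones. In edgeR's quasi-likelihood test on summed counts, with the section as a block, 3471 genes rose in epithelium-rich spots (27.3% of 12692) and 3792 fell (29.9%), but 0 of the 8 members passed the filter on low counts. With no filter 5 were tested, and 2 passed at an edgeR adjusted p under 0.05 with Benjamini-Hochberg adjustment, where 19.1% of 19183 genes were called higher. These were Scgb3a2 with a log2 fold change of 3.36 (adjusted p = 0.0190) and Sftpd with 5.34 (adjusted p = 0.0300). Sftpd had 4 and 6 UMIs in epithelium-rich spots (1.08 and 2.08 CPM) and 0 in muscle-rich ones, and the fitted size depends on the prior count. Spots in neither region had more, 6 and 16 Sftpd UMIs (1.31 and 5.45 CPM), of which 13 in replicate 2 lay in 1 spot. The test of epithelium-rich against muscle-rich spots thus does not place Sftpd in the epithelium. Over both sections its epithelium-rich level was 1.79-fold the level of 3 counts in muscle-rich spots. Sftpc, with 5 and 2 UMIs in epithelium-rich and 0 in muscle-rich spots, had an edgeR adjusted p of 0.194, Scgb1a1 0.584 and Scgb3a1 0.622. Sums of the epithelium-rich, muscle-rich and other spots of each section entered the fit. The p-values set the difference between epithelium-rich and muscle-rich sums against a dispersion estimated from these sums and partly shared over all genes. Only 2 sections stand behind them, and their animals are not named. The part of the cilia gene UMIs in these values was not tested.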

How the data were processed

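Spot transcriptomes of an E13.5 and an E16.5 embryo section and of 2 P0 esophagus sections were used. The deposited matrices hold raw counts of UMIs per gene and spot, made with Space Ranger 2.0.0 per the file headers, on mm10 per the submitters' processing notes. Spot positions are the deposited grid rows and columns, and tissue images were not used. Spots under 500 UMIs were left out.

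Levels are summed counts per 1000000 UMIs with exact Poisson 95% intervals, and shares have exact Clopper-Pearson intervals. Regions are the highest 2% of spots (25% at P0) by the mean log(1 + UMIs per 10000) of marker genes, no member among them, joined within 2 grid steps. Ratios of summed counts have exact conditional intervals, genes with under 20 UMIs over both sums were left out, and called genes are past 2-fold with a pseudocount of 0.5 CPM. Spots were not tested as replicates. P0 sums per section and region were tested with edgeR 4.0.16 (quasi-likelihood, TMM, section as block, Benjamini-Hochberg 0.05) and, as an alternative, DESeq2 1.42.0. Both regions of a section come from the same tissue, which is where the pairing comes from. The edgeR test was checked on simulated counts of the genes that passed the filter. No member was among them, so that check does not cover the results without a filter. Python 3.11.15, scipy 1.17.1 and R 4.3.3 were used. Named genes are the members, the 3 genes most like each and examples from the lists. Members, lists and places were chosen with earlier results of these data known. The alternatives are given in the closing section.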

Additional observations from a re-analysis of the deposited data

How the results depend on the processing

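Genes past 2-fold between the airway beside the lung and the distal lung numbered 894 higher and 2234 lower. They were 454 and 1458 with the highest 1% of spots, 2492 and 7372 with no minimum count, and 2274 and 949 with all ciliated-rich spots as airway. Higher genes were 551 with TMM scaling, and lower ones 1051 with the highest 5% of spots. Distal lung over the rest gave 1813 higher and 3761 lower, against 1034 and 1408 with the highest 5% of spots and 990 and 1578 with a pseudocount of 5 CPM. That pseudocount gave 544 higher and 785 lower at E13.5 (1005 and 2732 with 0.5 CPM), and 793 and 382 between the stages (1993 and 893). The highest 5% of spots gave 1409 lower at E13.5. The cause was not tested. For members, Scgb3a1 in the distal lung over the rest was reversed: log2 -3.38 became 0.45 with the highest 5% of spots and 1.09 with spots chosen by lung mesenchyme genes. Of the 209 Scgb3a1 UMIs in the mesenchyme-chosen spots, 199 lay in 1 spot, and a strip spot has that count. The cause was not tested. Scgb3a2, at -0.34, became 1.999 and 1.52 under the same settings. Sftpd in the airway over the distal lung was 0.61 and became -0.96 with the highest 5% of spots and -2.62 with all ciliated-rich spots, while Scgb1a1 stayed higher at 1.13 and 2.004. With the section as a replicate block, 7263 genes passed in the P0 test, and 6836 with no replicate block. DESeq2's Wald test called 4753. Between the embryo stages no pairing exists, with 1 section each. Leaving out a P0 section leaves no residual degrees of freedom, so that refit was not run. The 4 airway spots beside the lung, with 61980 UMIs, limit every value there.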
